A study of Capsicum annuum with 78 samples.

Results

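The subject here is the early leaf response of pepper to jasmonate: 3 libraries of leaves collected 3 h after a spray with methyl jasmonate (MeJA), set against 3 libraries of leaves collected 3 h after a spray with water (mock). These 6 of the 78 libraries of the series were taken by the treatment and time in their labels, and the comparison was made across all 35884 genes of the count table. The series holds plants of the cultivar Bukang, aged 6 weeks, sprayed with MeJA, salicylic acid (SA), ethephon (ET), abscisic acid (ABA) or water. Both groups used here come from plants of that cultivar, carrying no allele or transgene in the labels, and differ only in the spray, 100 μM MeJA or distilled water. Each library was made from the leaves of 4 plants. Each treatment was incubated in the growth chamber on its own, so treatment and incubation cannot be told apart. Reads of Bukang were mapped to the genome of another cultivar, CM334.

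Jasmonates are lipid-derived hormones made after wounding and insect attack. Inside the cell MeJA is turned into jasmonic acid and then into its isoleucine conjugate, which brings the JAZ repressor proteins to a ubiquitin ligase and so frees MYC-type transcription factors. In leaves of the nightshade family this pathway is known for raising proteinase inhibitors and other defence proteins, and for raising its own biosynthetic enzymes and repressors within hours. None of these genes can be named here: 0 of the 35884 identifiers occurred in the gene table used here and the count table gives no names, and the leaf label could not be checked against marker genes. Results are therefore given for groups of genes, and for 4 identifiers.

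The MeJA libraries held between 6217800 and 6714758 counts and the mock libraries between 5116920 and 6160111. Replicate 1 of MeJA stood apart. The chi-square statistic per degree of freedom (genes with 20 or more counts in the 2 libraries compared) was 22.4 and 22.9 between replicate 1 and the other MeJA replicates and 3.87 between those others. It was between 2.65 and 3.76 within mock, and at most 15.8 over the other 76 replicate pairs of the series. No pair was thus within sampling noise, and every library stands as 1 replicate. Replicate 1 was no nearer to mock than its fellows. Its chi-square against the mock libraries lay between 36.4 and 38.4, that of replicate 2 between 19.4 and 20.1, and that of replicate 3 between 14.9 and 16.8.

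The departure of replicate 1 was lopsided. Among 14396 genes with a mean of at least 20 counts, it held at most 50% of the CPM (counts scaled to the same library total) of both other MeJA replicates for 593 genes and at least 2 times their CPM for 65. The same count of low genes was 188 for MeJA replicate 2, 36 for MeJA replicate 3 and 38 to 55 for the mock replicates. That of high genes was 7, 32 and 16 to 45. MeJA replicate 2 was thus lopsided too, over fewer genes. Over the 593 genes the median was 12.5 CPM in MeJA replicate 1, 31.3 in MeJA replicate 2 and 33.0 in MeJA replicate 3, against 28.9, 31.1 and 31.1 CPM in mock. The medians of MeJA replicates 2 and 3 were thus close to those of mock, although both replicates lay within the mock range for only 135 of the genes. Replicate 1 lay below all 3 mock libraries for 585 of them. Across genes, the deviation of replicate 1 from the other MeJA replicates correlated with the deviation of each of the 75 libraries of other groups from its own replicates at Pearson's r between -0.15 and 0.20, given as a description only. The main counts below are therefore shown with and without MeJA replicate 1.

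**Figure D1:**
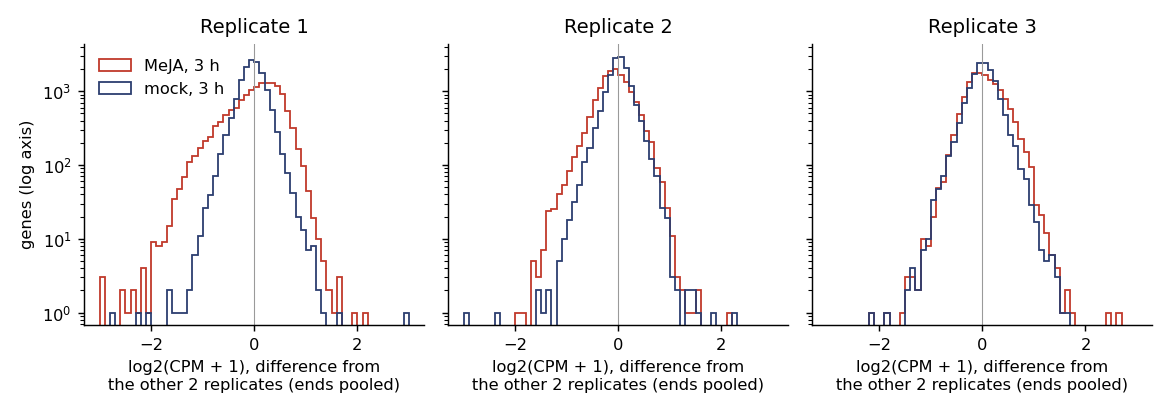
Each panel counts genes (log axis) by the difference in log2(CPM + 1) between a replicate and the mean of the other 2 of its group, for MeJA (red) and mock (blue) at 3 h; values beyond 3 are pooled in the end bins. MeJA replicate 1 has a wide left flank (SD over genes 0.51), while MeJA replicates 2 and 3 (0.35 each) lie close to the mock replicates (0.26 to 0.29).

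At 3 h after MeJA, 894 genes were higher and 652 lower than in mock, by the quasi-likelihood test of edgeR on the 6 libraries with a Benjamini-Hochberg adjusted p under 0.05. These are 5.44% and 3.97% of the 16422 genes tested, 9.41% together. Large changes were mostly rises. The fitted log2 change was 1 or more in 440 rises (2.68% of genes tested) and 197 falls (1.2%), 2 or more in 116 rises and 12 falls, and 4 or more in 17 rises. The median log2 change was 0.99 among the rises and -0.80 among the falls, against -0.01 over all genes tested. All 3 MeJA libraries lay above all 3 mock libraries in CPM for 893 of the 894 rises, where 17.3% of all genes tested did so, and below them for 649 of the 652 falls (13.8% of all genes tested). Without replicate 1 the groups did not overlap for 1647 of 1657 rises (23.5% of all genes tested lay that way) and 1444 of 1450 falls (21.1%), and a log2 change of 2 or more was reached by 118 and 20 of them. In leaf tissue sequenced in bulk, fewer cells of a type and less RNA per cell cannot be told apart.

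The rises were a visible part of the leaf's messenger RNA. The 894 genes took 12.9%, 11.2% and 10.5% of the counts in MeJA replicates 1, 2 and 3, against 5.70%, 5.56% and 5.59% in mock. Replicate 1 was thus the highest. The genes were chosen on these same 6 libraries, so the separation of MeJA from mock follows from the choice. The same holds for the falls and for the largest gains and losses below. The 652 genes that fell took 4.98%, 4.88% and 5.21% of the counts in MeJA, against 8.09%, 8.22% and 8.20% in mock. The 10 rises that gained the most counts had log2 changes between 0.51 and 2.51 and together took 2.88%, 2.32% and 2.17% of the counts in MeJA, against 1.31%, 1.22% and 1.25% in mock. The 10 falls that lost the most counts had log2 changes between -1.49 and -0.52 and took 1.19%, 1.21% and 1.31% in MeJA, against 2.16%, 2.09% and 2.11% in mock. All 20 of these genes also passed the test without replicate 1.

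**Figure D2:**
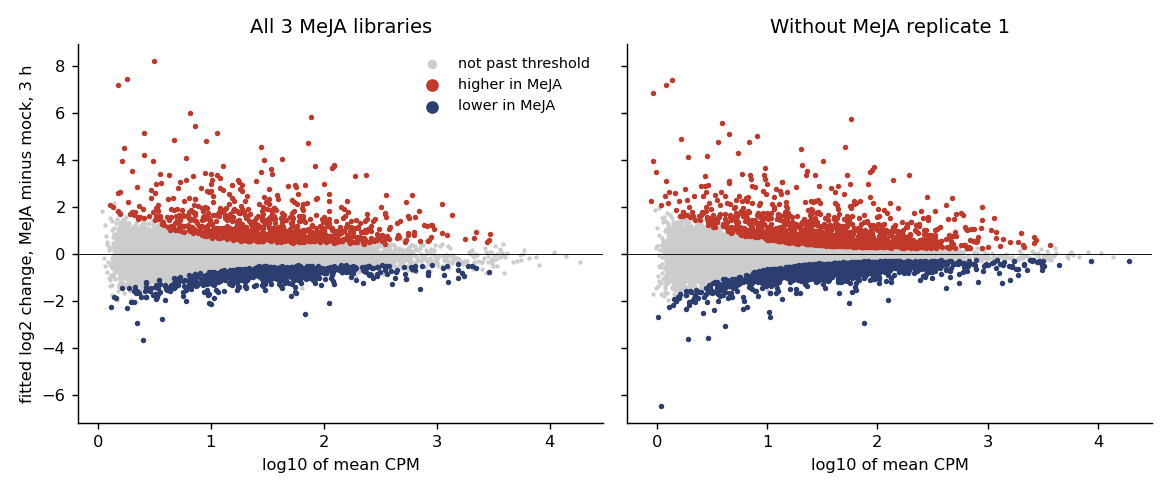
Fitted log2 change of MeJA minus mock at 3 h (vertical) against the log10 of the mean CPM (horizontal) for every gene tested, with all 6 libraries (left) and without MeJA replicate 1 (right). Red points rose and blue points fell by the test; 894 and 652 genes on the left, 1657 and 1450 on the right, where smaller changes pass.

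The largest rises were of genes close to silent in mock leaves. Among rises with at least 10 counts in every MeJA library, the 20 with the largest fitted change (log2 between 3.81 and 8.22) had a median of 15.8, 13.9 and 6.75 CPM in MeJA replicates 1, 2 and 3, against 0.24, 0.33 and 0.39 CPM in mock. The groups did not overlap for any of the 20 (17.3% of all genes tested lay that way). All 20 passed without replicate 1, as did 99.0% of all rises. The 20 were ranked on these same 6 libraries, with 10 counts asked of MeJA only. That choice favours low mock values and groups that do not overlap. For 3 genes every mock library had 0 counts and every MeJA library at least 10. With the groups exchanged there were 0 such genes. The 20 largest falls were smaller, with log2 changes between -3.66 and -1.81. Their median was 1.29, 0.97 and 1.40 CPM in MeJA, against 5.20, 4.51 and 4.59 CPM in mock. The groups did not overlap for 19 of these 20 (13.8% of all genes tested lay that way), which were likewise chosen on these libraries. Without replicate 1, 18 of these 20 passed, against 98.3% of all falls.

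The largest rise was that of CA.PGAv.1.6.scaffold1004.6, whose role is not given in the sources used here. It had 11.9, 4.91 and 2.02 CPM in MeJA replicates 1, 2 and 3 (74, 33 and 13 counts), against 0 counts in all 3 mock libraries. The MeJA libraries differed widely among themselves, with replicate 1 the highest, and none overlapped mock. Its MeJA mean was 6.28 ± 5.08 CPM (SD, n = 3). Set against 3 counts over the whole mock group, the upper limit that a count of 0 allows (0.174 CPM), this is at least 36.1-fold higher. Replicate 1 carries much of that mean, and without it the MeJA mean was 3.47 CPM and the bound at least 19.9-fold higher. The adjusted p was 0.00671 with all libraries and 2e-04 without replicate 1 (edgeR). At 1 h after MeJA it had 7.46, 4.23 and 6.49 CPM against 0 to 2 counts in mock (adjusted p = 2.64e-07, edgeR), and from 6 h to 24 h it had 0 counts in all libraries of both groups. At 3 h it also had 1.87, 0.71 and 1.5 CPM after ET, 0.64, 0.35 and 0.69 CPM after SA and at most 0.28 CPM after ABA. It was higher after MeJA than after each of them, by 2.18 (SE 0.54), 3.33 (SE 0.64) and 5.37 (SE 0.77) on the log2 scale against ET, SA and ABA (adjusted p = 0.00411, 0.000801 and 0.000209, edgeR). Without replicate 1 these differences were 1.40 (SE 0.54), 2.55 (SE 0.63) and 4.59 (SE 0.76), with adjusted p = 0.0485, 0.00609 and 0.00057. MeJA replicate 3 (2.02 CPM) was then close to the highest ET library (1.87 CPM).

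The largest fall was that of CA.PGAv.1.6.scaffold1045.27, again without a stated role. It had 0.322, 0.298 and 0.465 CPM after MeJA (2, 2 and 3 counts), against 5.68, 4.01 and 4.30 CPM in mock (35, 24 and 22 counts). Replicate 1 lay with the other MeJA libraries here. The log2 change was -3.66 (SE 0.43, adjusted p = 0.000478, edgeR) and -3.55 without replicate 1 (adjusted p = 0.000147). The ratio of pooled CPM was 0.077, with an exact 95% interval of 0.030 to 0.166 that covers counting error only. It was low after MeJA at 1 h too, at 0.42, 0.16 and 0.15 CPM against 2.33, 2.97 and 2.53 CPM in mock (log2 change -3.30, adjusted p = 6.12e-05, edgeR). In mock leaves it was counted at 0, 1 and 3 h and had 0 counts at 6, 12 and 24 h. At 3 h it had 0.478, 0.525 and 2.93 CPM after SA, at most 0.83 CPM after ET and 0 counts after ABA. It was lower than in mock after each of them too (adjusted p = 0.0136, 9.75e-06 and 3.69e-05, edgeR). MeJA was not called different from SA, ET or ABA for this gene (adjusted p = 0.148, 0.885 and 0.176, edgeR). Without replicate 1 these adjusted p were 0.251, 0.853 and 0.211.

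A further pair of genes was called without replicate 1 and not with all 6 libraries. CA.PGAv.1.6.scaffold1351.4 had 1.13 CPM in MeJA replicate 1 and 3.13 and 2.79 CPM in replicates 2 and 3, against 0.325, 0.501 and 0.586 CPM in mock. Without replicate 1 its log2 change was 2.62 (SE 0.56, adjusted p = 0.00278, edgeR). With all 6 libraries it fell under the filter on low counts and was not tested. CA.PGAv.1.6.scaffold710.38 had 2.73 CPM in MeJA replicate 1, inside the mock values of 2.44, 2.5 and 3.32 CPM, and 0.298 and 0.776 CPM in replicates 2 and 3. Its log2 change was -1.17 (SE 0.57, adjusted p = 0.235, edgeR) with all libraries and -2.32 (SE 0.59, adjusted p = 0.00975) without replicate 1. Both were picked as the largest changes that pass only without that library. CA.PGAv.1.6.scaffold710.38 shows its effect on a tested call at the extreme. For CA.PGAv.1.6.scaffold1351.4 the filter set the difference, and replicate 1 lay above all mock libraries.

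**Figure D3:**
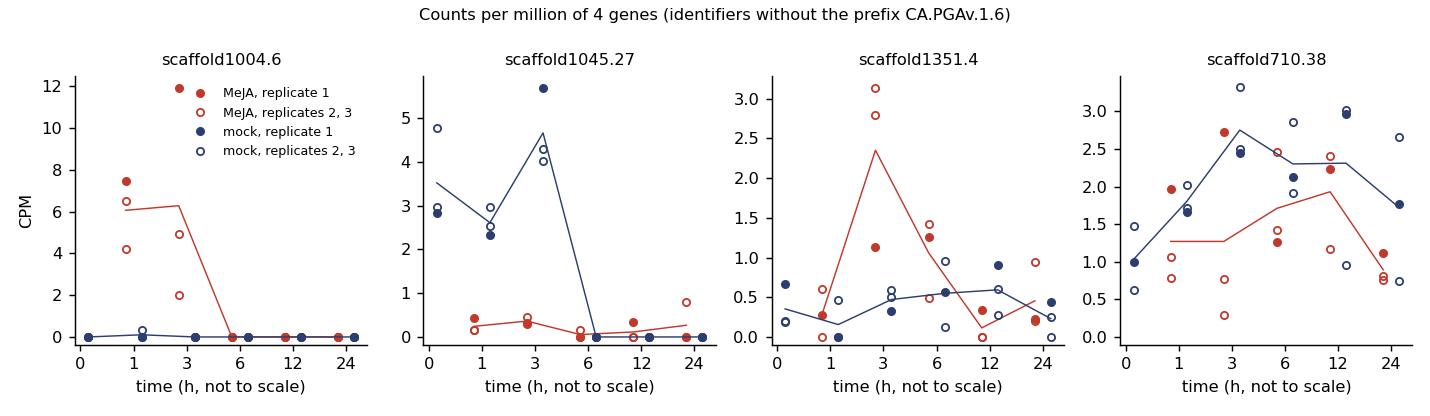
CPM of the 4 genes in MeJA (red) and mock (blue) leaves at each time, one point per library with replicate 1 filled, and lines through the means; MeJA has no 0 h group, and time is not to scale. At 3 h replicate 1 of MeJA is the highest library of scaffold1004.6 (11.9 CPM), lies with the others in scaffold1045.27, and lies nearer to mock in scaffold1351.4 and scaffold710.38.

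Leaving out MeJA replicate 1 raised the count to 1657 higher and 1450 lower genes (edgeR), 9.93% and 8.69% of 16692 tested and 18.6% together. The median standard error of the log2 change was 0.18 without it and 0.21 with it. Of the 894 rises 885 also rose without replicate 1, and of the 652 falls 641 also fell, which is 53.4% and 44.2% of the calls made without it. A further 772 rises and 809 falls were called only without it. Most of what it added was small. With a log2 change of at least 1 also asked, the counts were 455 rises (2.73%) and 230 falls (1.38%) without replicate 1 against 440 and 197 with it. Leaving out any other library lowered the count. Without MeJA replicate 2 it was 920 genes, without MeJA replicate 3 1366, and without mock replicate 1, 2 or 3 it was 648, 608 or 678. A fit by limma that weights the libraries gave MeJA replicate 1 a weight of 0.23 and the others 1.08 to 1.65, and called 2780 genes, 1541 of them among the 1546.

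For genes that replicates 2 and 3 set apart from mock, replicate 1 mostly lay on the same side, and more often so for the larger changes. Of all 1657 rises called without it, replicate 1 was above all mock libraries for 1345, within the mock range for 105 and below it for 207. Of all 1450 falls it was below all mock libraries for 1150, within their range for 178 and above it for 122. Of the 455 genes raised at least 2-fold without it, replicate 1 was above all mock libraries for 431, within the mock range for 17 and below it for 7. The median log2 difference from the mock mean was 1.57 in replicate 1, 1.41 in replicate 2 and 1.26 in replicate 3. Of the 230 genes lowered at least 2-fold, it was below all mock libraries for 204, within their range for 25 and above it for 1, and the medians were -0.85, -1.17 and -0.99. Over all 16422 genes tested with the 6 libraries, replicate 1 was above the mock mean for 56.1%. The share of all genes for which it lay beyond every mock library is not given here, so the counts above stand without that background. These genes were chosen on replicates 2 and 3 and on the same mock libraries, so the values describe replicate 1 and test nothing.

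A list from other libraries gave the same picture. MeJA raised 47 genes by a log2 change of 1 or more at both 1 h and 6 h, where it raised 3.82% and 1.38% of all genes that far, and none of the libraries behind this list is from 3 h. At 3 h their median log2(CPM + 1) difference from the mock mean was 1.76 in MeJA replicate 1, 1.86 in replicate 2 and 1.75 in replicate 3, against 0.03, -0.13 and 0.04 in the mock libraries. Over all genes tested the medians were 0.08, -0.03 and 0.06 in MeJA. Of the 46 list genes tested at 3 h, 35 rose and 1 fell with all libraries (5.44% and 3.97% of all genes tested). Without replicate 1, 36 rose and 1 fell (9.93% and 8.69% of all genes tested, edgeR). MeJA lowered 14 genes that far at both times, out of 1.55% of all genes at 1 h and 1.92% at 6 h. At 3 h their medians were -0.32, -0.60 and -0.55 in MeJA replicates 1, 2 and 3, against 0.17, -0.13 and 0.03 in mock. Of the 13 tested, 4 fell with replicate 1 (3.97% of all genes tested) and 4 without it (8.69%).

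**Figure D4:**
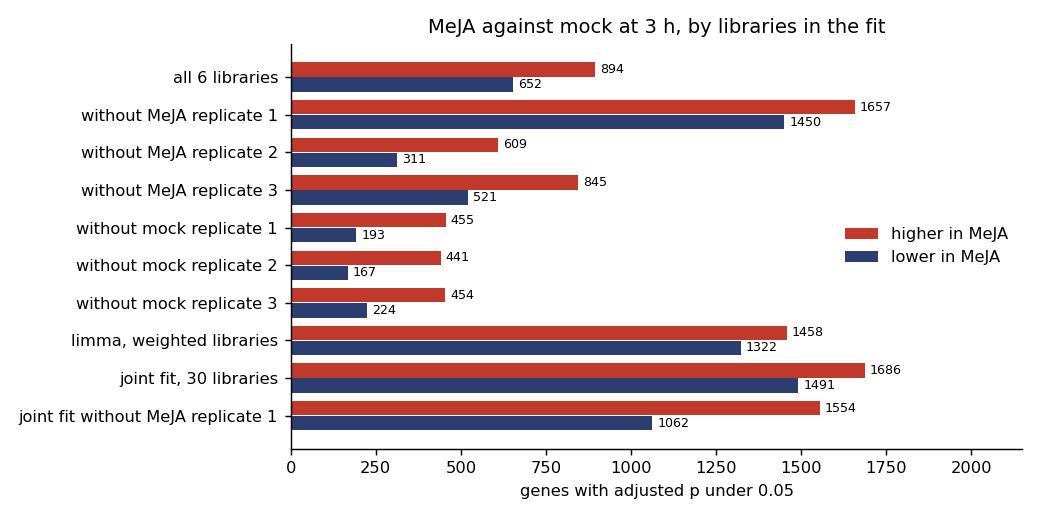
Genes higher (red) and lower (blue) after MeJA than in mock at 3 h at an adjusted p under 0.05, for all 6 libraries, for each library left out, and for 3 other fits. The counts run from 608 genes without mock replicate 2 to 3177 in the joint fit of 30 libraries, and only leaving out MeJA replicate 1 raises the count of the 6-library fit.

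The genes moved at 3 h were followed at the other times, where MeJA and mock have libraries of their own. Of the 894 rises, 874 were tested at 1 h and 534 of those (61.1%) were higher there too, against 12.4% of all genes tested at 1 h. The share was 26.8% at 6 h (7.6% of all), 39.5% at 12 h (10.7%) and 26.0% at 24 h (5.21%). The median log2 change of these genes was 0.56, 0.08, 0.41 and 0.26 at 1, 6, 12 and 24 h, where the median over all genes was between 0.00 and 0.01. At 6 h 18.0% of them were lower than in mock (8.6% of all), and at 1 h 3.89% were. The genes raised at 3 h were thus moved the same way most often at 1 h, where the share over all genes was highest too. Their median was nearest to 0 at 6 h, the other neighbouring time.

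The falls were also moved the same way most often at 1 h, where the share over all genes was again highest. Their median was nearest to 0 at 6 h, but it was as large at 24 h as at 1 h. Of 638 tested at 1 h, 319 (50.0%) were lower there, against 11.6% of all genes, and the share was 23.0% at 6 h (8.6%), 35% at 12 h (10.2%) and 25.2% at 24 h (5.32%). Their median log2 change was -0.34, -0.07, -0.30 and -0.35 at 1, 6, 12 and 24 h. The order of 1 h and 6 h was the same for the calls made without replicate 1, with 50.0% of the rises higher at 1 h and 19.7% at 6 h, and 47.5% and 20.6% of the falls lower. At 12 h and 24 h these shares were 30.2% and 19.1% of the rises and 31.0% and 20.9% of the falls. Of the 894 rises 157 (17.6%) were higher at 0 of the other 4 times and 28 (3.13%) at all 4, against 74.0% and 0.244% of all genes tested at 3 h. Of the 652 falls 158 (24.2%) were lower at 0 of them and 30 (4.6%) at all 4, against 74.1% and 0.347%. For the 1657 rises without replicate 1 these shares were 29.0% and 1.93%, and for the 1450 falls 28.7% and 3.45%.

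**Figure D5:**
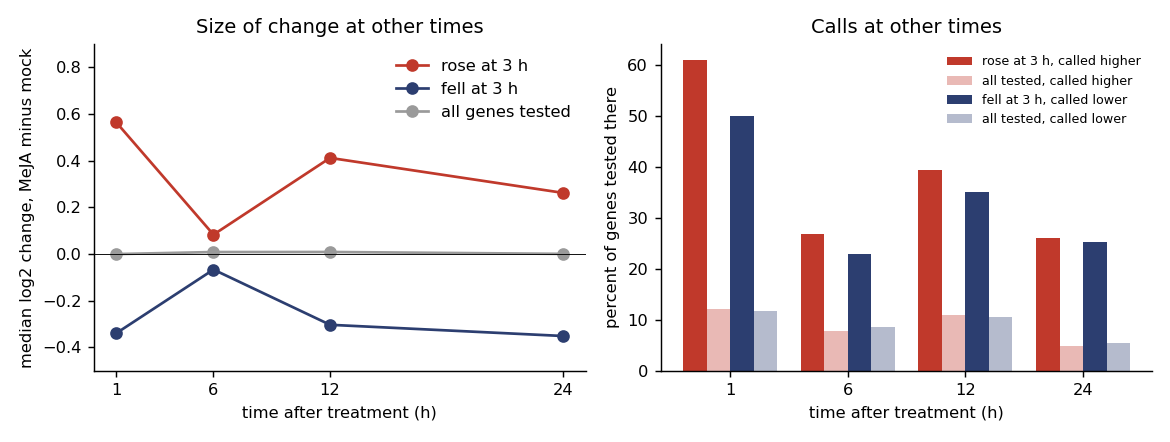
Left, the median log2 change of MeJA minus mock at 1, 6, 12 and 24 h for the genes that rose (red) or fell (blue) at 3 h and for all genes tested (grey). Right, the percent of these genes called in the same direction at each time, in full colour, beside the percent of all genes tested both at 3 h and at that time, in pale colour; 61.1% of the rises were higher at 1 h and 26.8% at 6 h.

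The change of the response between times was also tested directly, in a fit of the 30 MeJA and mock libraries of 1 to 24 h. The difference between MeJA and mock at 3 h was not that of 1 h for 877 of 18349 genes (4.78%), 506 of them higher at 3 h (2.76%) and 371 lower (2.02%). It was not that of 6 h for 2192 genes (11.9%), 1173 higher (6.39%) and 1019 lower (5.55%). Set against the mean of the other 4 times, 1527 genes differed (8.32%), 866 higher (4.72%) and 661 lower (3.6%). Among the 894 rises, 203 had a higher difference from mock at 3 h than at 1 h and 34 a lower one, and 527 had a higher one than at 6 h. Among the 652 falls, 107 were lower at 3 h than at 1 h and 4 higher, and 346 were lower than at 6 h. The rises and falls were chosen on the same 3 h libraries, which favours larger differences at 3 h. Without MeJA replicate 1 the 3 tests called 792, 2350 and 1328 genes. Of the 1657 rises 268 were then higher at 3 h than at 1 h, 50 lower and 841 higher than at 6 h, and of the 1450 falls 113 were lower than at 1 h, 5 higher and 584 lower than at 6 h. Without mock replicate 3 the test against the mean of the other times called 965.

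At 3 h MeJA was compared directly with the other hormones, in a fit of the 15 libraries of that time. MeJA differed from ABA for 1645 of 17711 genes (9.29%), with 830 higher (4.69%) and 815 lower (4.6%) after MeJA. It differed from SA for 4063 (22.9%), with 1811 higher (10.2%) and 2252 lower (12.7%), and from ET for 6106 (34.5%), with 3181 higher (18%) and 2925 lower (16.5%). Without MeJA replicate 1 these counts were 1471, 3723 and 6824. Of the 894 rises 465 were higher after MeJA than after ABA and 13 lower. Against SA 490 were higher and 111 lower, and against ET 436 and 154. Of the 652 falls 230 were lower after MeJA than after ABA and 3 higher. Against SA 208 were lower and 38 higher, and against ET 211 and 115. Without replicate 1, 543 of the 1657 rises were higher than after ABA and 24 lower, 698 and 195 against SA, and 802 and 257 against ET. Of the 1450 falls 284 were then lower than after ABA and 5 higher, 290 and 82 against SA, and 495 and 242 against ET. The same MeJA libraries chose these genes. The comparisons of the hormones with mock share the 3 mock libraries, so their values are only set side by side. Over the 894 genes the median log2 change from mock was 0.99 after MeJA, 0.48 after ABA, 0.42 after SA and 0.65 after ET. Over the 652 genes it was -0.80 after MeJA, -0.37 after ABA, -0.55 after SA and -0.63 after ET.

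In mock leaves many of the genes that fell after MeJA were lower at 6 h than at 1 h. Between 1 h and 6 h, times at which no library of this comparison was taken, mock leaves changed for 44.2% of 16775 genes. Of the falls, 319 of 644 tested (49.5%) were lower in mock at 6 h than at 1 h and 124 (19.3%) higher, where 22.8% and 21.4% of all genes were. The median log2 change was -0.28, against 0.02 over all genes. The falls called without replicate 1 gave 49.8% lower and a median of -0.26. Of the rises 37.0% were higher and 32.0% lower at 6 h, with a median of 0.05. Among the larger changes the share of falls that were lower was smaller. Of the falls by a log2 change of 1 or more, 37.6% were lower and 27.5% higher in mock at 6 h (median -0.18), and of the rises that large 40.0% were higher and 29.4% lower (median 0.13). The mock libraries of 3 h were not in this fit, so it does not show the course between these times. The part of this change over time in the result was not tested.

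The genes on which MeJA replicate 1 fell short were also followed in the ET libraries, none of which was used to choose them. This was done after the values were seen, and why replicate 1 stood apart was not tested. Of the 593 genes low in replicate 1, 592 were tested at 3 h after ET and 325 (54.9%) were lower than in mock. This compares with 24.9% of all genes tested and 27.4% of all genes with a mean of at least 20 counts. The share was 54.3% at 1 h after ET (21.9% of all genes and 24.1% of those with a mean of 20 counts) and 59.1% at 6 h (28.8% and 31.7%). Their median log2 change was -0.44 at 3 h after ET, -0.47 at 1 h and -0.49 at 6 h. Of the 188 genes low in MeJA replicate 2, 15.4% were lower at 3 h after ET and their median was -0.09. Of the 36 genes low in MeJA replicate 3, 35 were tested there. Of these 11.4% were lower and 42.9% higher, with a median of 0.23. Of the genes high in MeJA replicate 1, 23.8% of 63 tested were higher at 3 h after ET, against 24.8% of all genes with a mean of 20 counts. The share was 22.2% at 1 h after ET (18.9% of those genes) and 39.7% at 6 h (29.4%). After MeJA at 1 h the 593 genes had a median log2 change of 0.06, with 15.7% higher than in mock and 7.95% lower. Their medians at 6, 12 and 24 h after MeJA were -0.07, -0.12 and 0.01, and at 3 h after ABA and SA they were 0.03 and 0.10. At 3 h after SA 20.6% of the 593 genes were higher than in mock and 11.3% lower. The shares over all genes with a mean of 20 counts were 15.2% and 14.2%. With all 6 libraries of the comparison, 11 of the 593 genes (1.85%) were called lower after MeJA and 1 (0.169%) higher, against 3.97% and 5.44% of all genes tested. These genes were chosen for a wide spread within MeJA, which widens their error in that test. Without replicate 1, 46 (7.76%) were lower and 76 (12.8%) higher, against 8.69% and 9.93% of all genes tested, whatever their mean count. The choice asked for higher values in replicates 2 and 3 than in replicate 1, which favours rises in that fit.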

How the data were processed

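Leaf RNA of 78 pepper libraries was sequenced as strand-specific paired-end libraries. Per the submitters' processing notes, reads were checked with FastQC 0.11.8 and cleaned with cutadapt 1.15 and Trimmomatic 0.38. The authors mapped them with HISAT2 to the CM334 genome v.1.6 and counted them per gene with HTSeq 0.11.2. The deposited values are raw counts, 1 column per library, with 0 columns left without a sample. The strand setting and the treatment of reads with several places are not given in the sources used here, so counts of overlapping genes and gene copies are uncertain. Groups and replicate numbers came from the sample titles.

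The 6 libraries were fitted with edgeR 4.0.16 in R 4.3.3 (filterByExpr, TMM, glmQLFit, glmQLFTest) with Benjamini-Hochberg adjustment and 0.05 as the threshold. They were fitted alone, so that the spread of this group set the error, since replicate 1 stands apart; standard errors came from the F statistic. Differences between times came from a fit of 30 libraries and hormones from a fit of 15. CPM were taken over total counts. Intervals and the floor of 3 counts cover counting error only. The code was tested on simulated counts. These had the same spread in every library and no replicate that stood apart, so they do not show the error rates of this comparison. Named genes were asked for 10 or more counts in each library of the higher group: the largest rise and fall that passed with and without replicate 1 and did not overlap, and the largest that passed only without it. Alternatives were RLE, DESeq2 1.42.0, limma 3.58.1 with library weights, other filters, a robust prior, a replicate block, other sets of libraries and each library left out. The comparison of genes low in replicate 1 with ethephon was chosen after their values were seen. Members, rules and lists were chosen with earlier results of these data known. Python 3.11.15 with pandas 2.3.3 and numpy 2.4.6 was used for descriptions.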

Additional observations from a re-analysis of the deposited data

Results flagged for a closer look

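The effect of MeJA differed between times by a direct test (edgeR, adjusted p under 0.05). The difference from mock at 3 h was not that of 1 h for 877 genes, not that of 6 h for 2192 genes and not the mean of the other 4 times for 1527 genes. Their fit shares 1 spread per gene over 10 groups, although replicates of MeJA at 3 h lay further apart than most.

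CA.PGAv.1.6.scaffold1045.27, the largest fall, differed from its mean over the other 4 times by -4.95 on the log2 scale (SE 1.16, adjusted p = 0.00716, edgeR). Against 1 h alone, the only other of these times with counts in mock, the difference was -0.33 (adjusted p = 0.922), and against 6 h the adjusted p was 0.173 (edgeR). In that mean, 6, 12 and 24 h had 0 counts in mock and 0 to 4 counts after MeJA, where a fitted change depends on the prior count and is no bound.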

How the results depend on the processing

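Of the 134 values recomputed under alternatives, 117 kept their direction and side of the threshold. For counts of genes this meant within 1.5 times, and for medians within 1 SD of the MeJA replicates' medians. A further 14 moved beyond that with the same direction, 3 passed the threshold newly and 0 reversed. The main count of 1546 genes stayed within that range for only 7 of its 17 alternatives. The median of replicate 1 over the list raised at 1 h and 6 h did so for 0 of 3. The 1546 genes at 3 h became 608 to 3107 with 1 library left out, 2780 with limma's library weights, 3177 in the joint fit of 30 libraries, 2616 in that fit without MeJA replicate 1, 2717 in the fit of all 15 libraries of 3 h and 637 with a log2 change of at least 1. RLE gave 1553, DESeq2 1598, no filter 1735, at least 10 counts in every library 1456 and the robust prior 1562. The 1527 genes against the mean of other times became 965 to 1881 with 1 library left out. The median of replicate 1 over the list raised at 1 h and 6 h, 1.76, was 1.90 with a pseudocount of 0.1, 1.65 with TMM scaling and 0.81 over 264 genes with no size asked. CA.PGAv.1.6.scaffold710.38 passed without replicate 1 (-2.32), in the joint fit without it (-2.32) and with library weights (-2.16). Same-numbered MeJA and mock libraries deviated together at correlations of 0.12, 0.09 and 0.20, each the highest for its MeJA library, a hint from the data that misses the rule of 0.1 for every pair. With the replicate block 1677 genes were called. Calls were fewer and errors larger where counts were low, and no other depth was run: among the 4106 tested genes with the lowest mean CPM (1.1 to 6.1) the median standard error was 0.36 and 149 genes passed, against 0.15 and 646 in the 4106 with the highest.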
